A study of Mus musculus with 36 samples.

Results

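The genes described here encode cyclins, cyclin-dependent kinases and their inhibitors, origin and helicase proteins, replicative polymerases, the anaphase-promoting complex and centromere and spindle proteins. They were taken by symbol (the prefixes Ccn, Cdk, Cdc, Mcm, Orc, Cenp, Rfc, Pola, Pold, Pole, Prim, Rrm, Anapc, Bub, Mad2, Aurk, Plk, Top2, E2f and Gins, and Pcna and Mki67) from autosomes other than chromosome 10. A gene was a member if a probe was detected in at least 6 of 18 arrays, and its brightest such probe stood for it. The rule gave 55 members on 15 chromosomes, of 4147 named genes with a detected probe.

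The study measured RNA of single whole mouse brains of postnatal day 0.5 on Illumina Sentrix Mouse-6 bead arrays, 6 brains for each of 3 lines. The C10 congenic line is written A.B6chr10 in the series text, which by congenic nomenclature means A/J mice with a stretch of B6 chromosome 10; the length of the stretch is not analysed here. B6 and A/J are inbred strains. The labels name no transgene or treatment, and adult hippocampus of the same lines was not used here. By that reading of the congenic name, the members lie on chromosomes that the congenic line shares with A/J. Signals are the deposited intensities per probe, in arbitrary units, and differences are on the log2 scale of the quantile normalized signal plus 75, which understates differences of dim probes. Probes carry no gene symbols, and names rest on reading the number in a probe ID as an NCBI Gene ID.

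In dividing cells, cyclin-dependent kinases drive the steps of the cycle. Origins are licensed by the origin recognition complex and the MCM helicase, DNA is copied in S phase by polymerases held on the PCNA clamp, and the anaphase-promoting complex ends mitosis by marking cyclin B and securin for destruction. In newborn mouse brain, cells still divide around the ventricles, in the dentate gyrus and on the surface of the cerebellum, while most neurons of other regions no longer divide. In whole brain, fewer dividing cells and less RNA per cell cannot be told apart.

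Between 14410 and 15733 of 45580 probes were detected per array. The arrays of C10 congenic brain 3, B6 brain 4 and B6 brain 1 correlated least with the others of their line (mean r 0.956, 0.960 and 0.966, against 0.976 to 0.988 for the other 15). Xist, which marks female cells, gave 7076.6 in A/J brain 6, with signals of −7.3 and −2.9 for the Y-linked Eif2s3y and Kdm5d, whereas the other 17 brains had Xist at most at 23.0 and Eif2s3y at least at 1496.8. Counts are therefore also given without the 3 arrays and without A/J brain 6. Among marker genes, the summed signal of the 3 measured red blood cell genes was 24067.7 to 50782.8 in C10 congenic brains, 9352.6 to 23231.5 in B6 brains and 33786.9 to 53024.0 in A/J brains, and its part in the results was not tested. The 3 genes did not move together, since Hbb-b1 passed in the direction opposite to Hba-a1 and Hbb-b2 in both comparisons with B6.

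Of 77 genes on the array that met the symbol and chromosome rule, 22 had no probe detected in 6 arrays, among them Bub1, Ccne2, Cdca8, E2f2, E2f8 and Cdkn1b. All 18 brains had a detected signal for 46 of the 55 members. Mean signals per probe ran between 81.0 and 10879, with a median of 526. The 3 brightest member probes were those of Anapc5, Cdk2ap1 and Cdc5l, and the 3 dimmest those of Ccnd3, Cdca7l and Cdc6, the last 3 detected in 6, 8 and 14 of 18 brains. Levels of different probes are not compared, since probes bind with different strength. The spread between brains of a line had a median SD of 0.20 on the log2 scale (0.11 to 0.48), against 0.21 over all 15892 probes tested, and in all 55 members the SD between brains exceeded the standard error over beads of a probe.

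Of the 55 members, 48 passed the test in no comparison of the lines. In the C10 congenic line against A/J, 0 of 55 members passed limma's test at an adjusted p under 0.05, where 0.931% of all probes did. At an unadjusted p under 0.05 there were 9 members (16.4%, against 15.2% of all probes). In the C10 congenic line against B6, 3 members passed (5.45%, against 12.1% of all probes). All 3 were lower in the congenic line (6.1% of all probes were). In B6 against A/J, 6 members passed (10.9%, against 16.1% of all probes), 4 higher and 2 lower (8.12% and 7.99% of all probes). The 7 genes involved are Plk1, Anapc13, Anapc1, Cdc14b, Rrm2, Cdkn1a and Cdkl2. Plk1 was kept by the filter through its detection in B6 alone, so that its 2 passes were built into its selection; without it, 2 of 54 members passed against B6 and 5 of 54 in B6 against A/J (3.70% and 9.26%). At an unadjusted p under 0.05 the congenic line against B6 gave 11 members (25.2% of all probes) and B6 against A/J 10 (28.8% of all probes). The comparisons share brains, so the 9 calls are not independent of one another.

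Intervals bound the size of these differences. The 95% interval of the log2 difference lay within 0.5 of 0 for 46, 44 and 41 of the 54 members other than Plk1 (C10 congenic against A/J, C10 congenic against B6, and B6 against A/J), where 79.0%, 69.6% and 66.4% of all probes had such an interval. It lay within 1 of 0 for all 54 in each comparison. The median difference over the members was −0.02, −0.03 and −0.00 in the 3 comparisons, beside −0.00, 0.02 and −0.02 over all probes. The median size of a difference was 0.11, 0.13 and 0.11, beside 0.12, 0.14 and 0.16 over all probes.

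**Figure D1:**
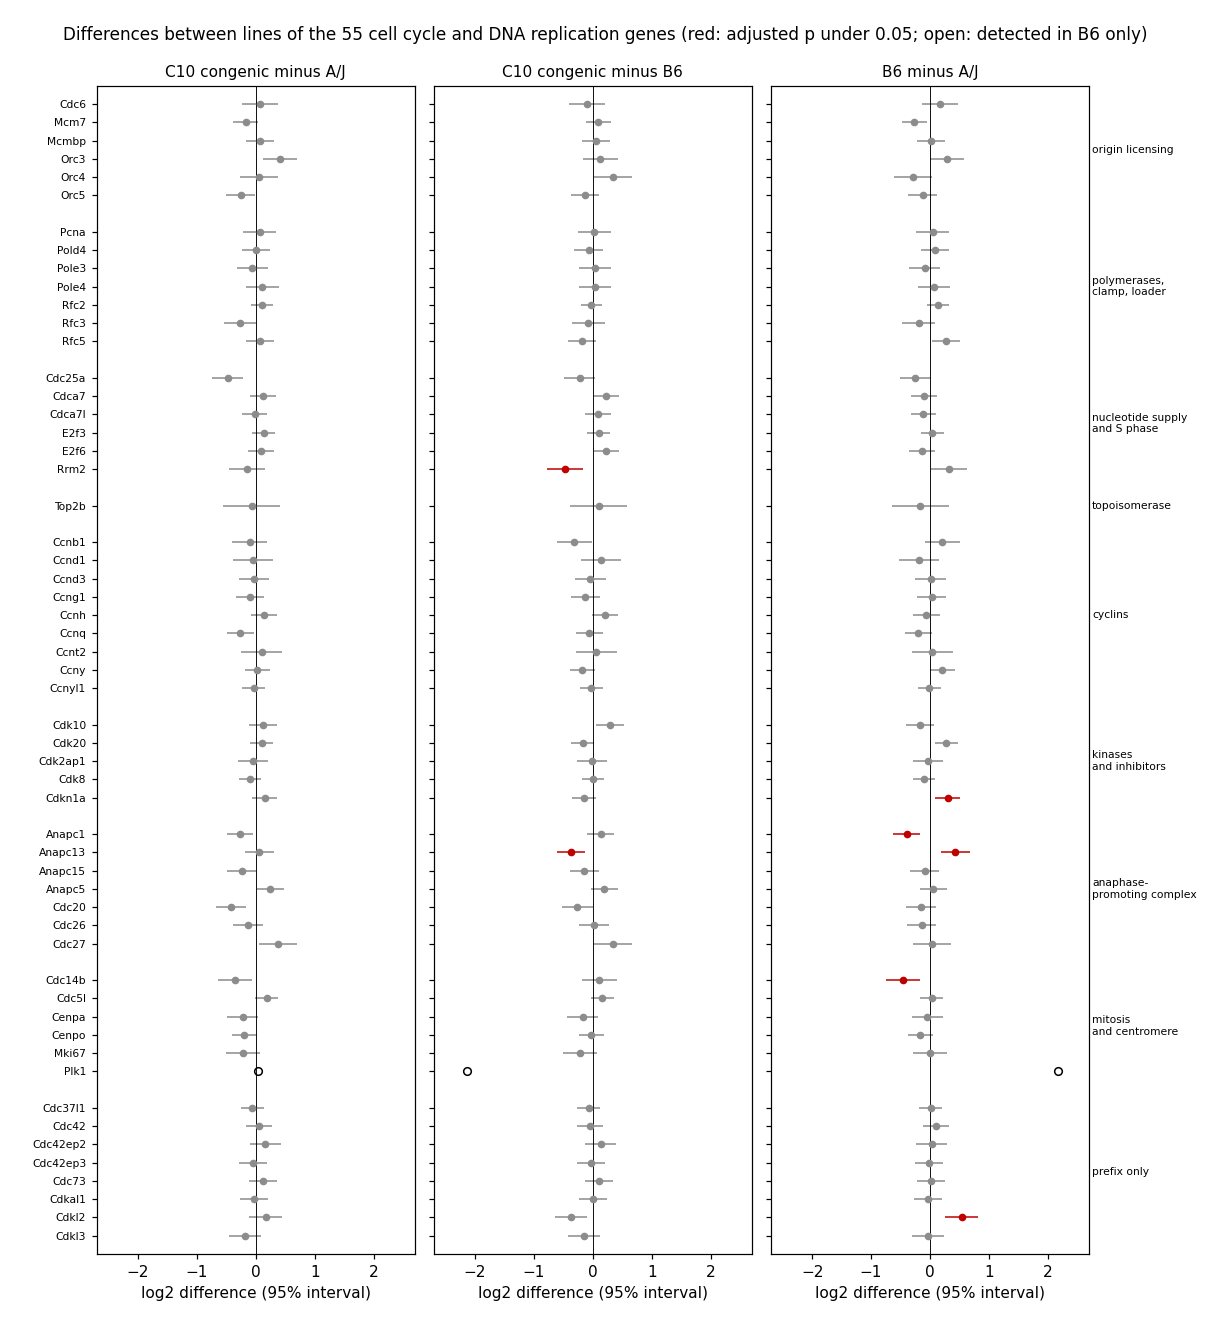
Differences between lines on the log2 scale with 95% intervals for the 55 members, grouped by role, with genes down the page and 1 panel per comparison (6 brains per line). Red points passed limma's test at an adjusted p under 0.05; there are 0, 2 and 5 of them. Open points are Plk1, without an interval because it was detected in B6 alone.

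Plk1, the kinase that drives mitotic entry, spindle assembly and cytokinesis, was detected in B6 alone. Its signals were 57.0, 42.3, 47.5, 36.6, 29.3 and 10.4 in C10 congenic brains, 632.6, 367.4, 376.1, 537.4, 304.6 and 343.2 in B6 brains, and 67.4, 54.2, 30.3, 26.6, 23.4 and 8.8 in A/J brains. Every B6 brain was above every brain of the other lines, and the probe was detected in all 6 B6 brains and in none of the other 12. The signal was not well above background in the congenic and A/J brains, so the ratios are bounds, at least 2.98-fold higher in B6 than in the congenic line and at least 3.04-fold higher than in A/J, from the mean over B6 brains against the lowest detected signal per array or the probe's own.

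Detection in the 6 B6 brains is also what carried this Plk1 probe past the filter of 6 arrays, so a difference of B6 from the other lines was built into its selection, and its values are a description with no test. The array has another Plk1 probe, which was detected in 1 of 18 brains, an A/J brain. Its signal was 12.8 to 49.6 in C10 congenic brains, 13.1 to 66.3 in B6 brains and −10.7 to 94.0 in A/J brains. The high signal in B6 was therefore seen by 1 probe of Plk1 and not by the other.

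Promoter sequences are shown for Plk1 and for 3 members that passed, Anapc13 in both comparisons with B6 and Cdkl2 and Rrm2 with the largest differences after Plk1, to show which known cell cycle elements they hold. They are RefSeq windows of GRCm38.p6 from 250 bases before to 50 after the gene start, written 5′ to 3′ on the strand of the gene: Plk1 at chr7:122159185-122159484 (plus strand), Anapc13 at chr9:102626046-102626345 (plus strand), Cdkl2 at chr5:92042993-92043292 (minus strand, the more upstream of 2 windows) and Rrm2 at chr12:24708004-24708303 (plus strand). Capitals mark the CCAAT box (CCAAT), bound by NF-Y, and the cell cycle homology region (CHR, searched as TTTGAA or TTCGAA), through which the DREAM and MuvB complexes hold G2 and M phase genes off in resting cells.
Plk1: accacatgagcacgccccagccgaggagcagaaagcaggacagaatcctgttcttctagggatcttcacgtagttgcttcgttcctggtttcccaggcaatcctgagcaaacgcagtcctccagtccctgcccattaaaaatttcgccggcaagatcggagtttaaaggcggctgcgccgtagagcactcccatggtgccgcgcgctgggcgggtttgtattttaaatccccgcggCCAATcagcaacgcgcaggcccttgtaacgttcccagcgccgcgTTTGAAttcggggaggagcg
Anapc13: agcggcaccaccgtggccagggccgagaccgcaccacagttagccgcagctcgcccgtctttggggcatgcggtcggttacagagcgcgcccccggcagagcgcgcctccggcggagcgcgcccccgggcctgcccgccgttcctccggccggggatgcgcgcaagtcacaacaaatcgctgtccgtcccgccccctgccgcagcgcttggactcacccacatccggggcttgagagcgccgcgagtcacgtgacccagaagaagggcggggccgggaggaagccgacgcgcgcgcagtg
Cdkl2: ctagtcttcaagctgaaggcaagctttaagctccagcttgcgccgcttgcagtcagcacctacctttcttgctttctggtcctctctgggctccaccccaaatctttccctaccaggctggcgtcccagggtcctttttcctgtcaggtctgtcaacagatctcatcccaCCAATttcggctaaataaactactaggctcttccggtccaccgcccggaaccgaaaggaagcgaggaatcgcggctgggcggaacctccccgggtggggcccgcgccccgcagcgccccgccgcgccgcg
Rrm2: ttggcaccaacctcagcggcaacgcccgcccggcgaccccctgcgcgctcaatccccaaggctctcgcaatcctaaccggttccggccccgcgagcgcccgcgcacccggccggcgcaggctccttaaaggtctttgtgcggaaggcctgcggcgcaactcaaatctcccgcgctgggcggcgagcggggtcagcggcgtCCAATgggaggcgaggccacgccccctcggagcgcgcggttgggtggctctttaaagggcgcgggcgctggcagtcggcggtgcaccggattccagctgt

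The Plk1 window held a CCAAT box at position −14 and a CHR at position 31, both on the strand of the gene and counted from its start. The Rrm2 window had a CCAAT box at −50 and the Cdkl2 window one at −80, and the Anapc13 window held neither element. None of the 4 windows held the E2F letters searched (TTTCGCGC or TTTGGCGC). Over both strands, the E2F letters were in 3 of the 60 windows of members (5.0%, against 0.814% of 32817 windows of all genes), the CHR letters in 8 (13.3%, against 19.2%), CCAAT in 29 (48.3%, against 37.4%) and the Sp1 box GGGCGG in 41 (68.3%, against 35.6%). Windows were found for 50 of the 55 members. A match is a description of the sequence, and only reference sequence was read.

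Of the 5 other mitosis and centromere genes, Cdc14b passed the test, in 1 comparison. Cdc14b, a phosphatase that opposes cyclin-dependent kinases, had signals of 182.9, 177.5, 60.0, 183.1, 147.8 and 127.2 in C10 congenic brains, 163.8, 129.6, 104.7, 76.6, 117.9 and 176.6 in B6 brains and 216.4, 194.1, 201.7, 218.5, 184.5 and 188.6 in A/J brains. All A/J brains were above all brains of the other lines, though the lowest A/J signal (184.5) was close to the highest congenic one (183.1). The gene was lower in B6 than in A/J by the test (log2 difference −0.46, SE 0.141, limma adjusted p = 0.0271). In the congenic line against A/J the difference was −0.35 (95% interval −0.64 to −0.06, limma adjusted p = 0.236). Groups that did not overlap were found for 1, 3 and 3 members in the 3 comparisons. They were Cdc14b in the first, Plk1, Anapc13 and Cdk10 in the second, and Plk1, Cdkl2 and Cdc14b in the third. These are 1.82%, 5.45% and 5.45% of members, beside 1.99%, 6.22% and 8.57% of all probes. The separation of Plk1 was built into its selection. Without Plk1, the groups did not overlap for 2 of 54 members (3.70%) in each comparison with B6.

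Mki67, the standard marker of cycling cells, had signals of 427.9, 354.9, 288.0, 207.7, 412.0 and 368.0 in C10 congenic brains, 457.5, 400.3, 388.9, 310.0, 415.8 and 456.4 in B6 brains, and 391.6, 315.7, 361.2, 457.8, 360.8 and 563.8 in A/J brains. The 3 lines overlapped. Its B6 minus A/J difference was −0.00 (95% interval −0.28 to 0.28), and the congenic line was at −0.22 against A/J (−0.50 to 0.06) and −0.22 against B6 (−0.50 to 0.06). Another probe of Mki67 was detected in 0 of 18 brains and was not tested. Cenpa, the histone H3 variant that marks centromeres, averaged 1018.5 ± 161.7 in C10 congenic brains, 1152.5 ± 163.5 in B6 brains and 1204.7 ± 228.3 in A/J brains (SD, n = 6 each). No difference of Cenpa passed, with values of −0.22, −0.17 and −0.05 in the 3 comparisons. Cenpo, of the constitutive centromere network, and Cdc5l, a splicing factor named for its yeast relative, did not pass either.

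Among the 7 members of the anaphase-promoting complex, Anapc13 and Anapc1 passed the test, in opposite directions between B6 and A/J. Anapc13, a small subunit, had signals of 1517.7, 1507.7, 1462.9, 1240.3, 1487.1 and 1426.9 in C10 congenic brains, 2075.4, 1837.5, 1694.2, 2406.3, 1755.0 and 1571.4 in B6 brains, and 1288.2, 1403.4, 1208.9, 1280.9, 1209.7 and 1974.8 in A/J brains. The congenic brains were all below the B6 brains, whereas A/J brain 6 reached into the range of B6. The gene was lower in the congenic line than in B6 (log2 difference −0.37, SE 0.118, limma adjusted p = 0.0414) and higher in B6 than in A/J (0.43, SE 0.118, limma adjusted p = 0.0132). Without A/J brain 6 the second difference was 0.53 (limma adjusted p = 0.0009).

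Anapc1, the large scaffold subunit, averaged 761.7 ± 122.2 in C10 congenic brains, 682.4 ± 56.9 in B6 brains and 929.5 ± 131.1 in A/J brains (SD, n = 6 each). The B6 brains ran between 622.7 and 777.6, and A/J brain 1 at 723.8 lay among them, with the other A/J brains between 878.7 and 1122.3. Anapc1 was lower in B6 than in A/J (log2 difference −0.40, SE 0.109, limma adjusted p = 0.0127), and in the congenic line against A/J it was at −0.27 (limma adjusted p = 0.24).

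Cdc20, which activates the complex and recruits its targets, averaged 156.4 ± 55.8 in C10 congenic brains, 197.3 ± 24.6 in B6 brains and 229.6 ± 37.0 in A/J brains (SD, n = 6 each). Its difference between the congenic line and A/J was −0.42 (95% interval −0.68 to −0.16) and missed the threshold (limma adjusted p = 0.106). Other probes of Cdc20 were detected in 3 and 1 of 18 brains and were not tested. They averaged 71.1 and 69.7 in C10 congenic brains, 76.0 and 56.3 in B6 brains, and 60.1 and 63.0 in A/J brains. Without C10 congenic brain 1, which had the highest congenic signal at 256.6, Cdc20 (−0.53, limma adjusted p = 0.0203) and Cdc25a (−0.53, limma adjusted p = 0.0488) passed in this comparison. The same fit of 17 brains gave passes in the congenic line against B6 for Cdc20 (−0.37, limma adjusted p = 0.0297) and for the cyclin gene Ccnb1 (−0.44, limma adjusted p = 0.0298). Anapc13 no longer passed there (−0.39, limma adjusted p = 0.0529). Over the 18 fits that each left out 1 brain, Cdc20 passed in 1 fit against A/J and in 1 against B6. Ccnb1 passed in 1 of the 18 against B6, and Cdc25a in 3 of the 18 against A/J. Cdc27, a core subunit named here after its values were seen, was at 0.38 against A/J and 0.35 against B6 in the congenic line (limma adjusted p = 0.244 and 0.163). Anapc5, Anapc15 and Cdc26 passed in no comparison.

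**Figure D2:**
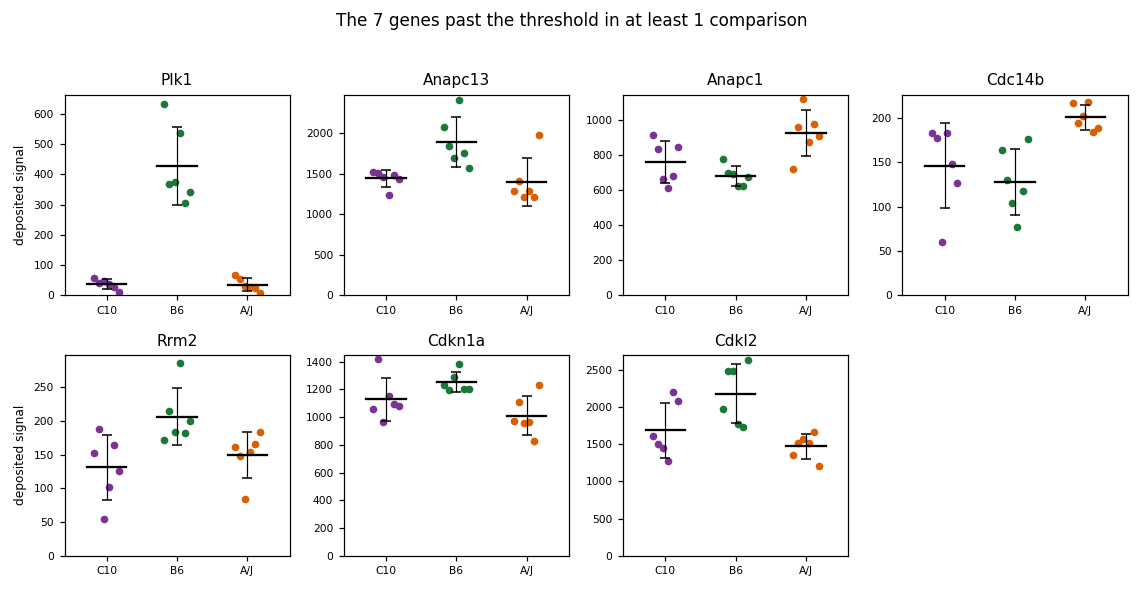
Deposited signal in each brain (points) of the 7 genes that passed in at least 1 comparison, with C10 congenic, B6 and A/J brains left to right, the mean as a black line and the SD as a bar (n = 6 per line). B6 brains stand apart from both other lines for Plk1. A/J brains lie above both for Cdc14b, but only narrowly above the congenic line (lowest A/J signal 184.5, highest congenic signal 183.1). C10 congenic and B6 brains do not overlap for Anapc13, nor B6 and A/J brains for Cdkl2, and the lines overlap for Anapc1, Rrm2 and Cdkn1a.

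Of the genes for nucleotide supply and the start of S phase, Rrm2 passed in 1 comparison. Rrm2 encodes the small subunit of ribonucleotide reductase, which makes deoxyribonucleotides and is made mainly in S phase. It had signals of 151.7, 187.9, 54.3, 102.4, 164.6 and 126.3 in C10 congenic brains, 171.7, 214.7, 183.3, 286.0, 181.5 and 199.7 in B6 brains, and 160.9, 148.4, 84.6, 154.0, 166.0 and 182.7 in A/J brains. The highest congenic brain lay within the range of B6. The congenic line was lower than B6 (log2 difference −0.47, SE 0.148, limma adjusted p = 0.0367), and B6 against A/J was at 0.33 (limma adjusted p = 0.138). Another probe of Rrm2 was detected in 2 of 18 brains and was not tested.

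Cdc25a, the phosphatase that releases cyclin-dependent kinases for S phase, was named after its values were seen because it lay nearest to the threshold in the congenic line against A/J. Its signals were 237.9, 222.5, 112.1, 214.5, 179.2 and 184.0 in C10 congenic brains, against 225.7, 323.8, 314.2, 334.0, 282.1 and 280.0 in A/J brains. A/J brain 1 was the one that fell among the congenic brains. The difference was −0.48 (SE 0.129, limma adjusted p = 0.0723), and in B6 against A/J it was −0.25 (limma adjusted p = 0.203). E2f3, a transcription factor of S phase genes, E2f6, a repressor of the same family, and Cdca7 and Cdca7l did not pass in any comparison.

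No member for origin licensing passed in the fit of lines alone, without a replicate block. Mcm7, a subunit of the replicative helicase, had signals of 872.6, 843.9, 730.1, 776.1, 793.9 and 666.4 in C10 congenic brains, 774.8, 666.4, 750.5, 845.5, 706.7 and 629.5 in B6 brains, and 1015.9, 750.2, 870.9, 856.0, 795.4 and 1073.1 in A/J brains. It was at −0.27 in B6 against A/J (95% interval −0.48 to −0.06, limma adjusted p = 0.0788). Orc3, a subunit of the origin recognition complex named after its values were seen, had the largest positive value in the congenic line against A/J, 0.41 (95% interval 0.12 to 0.70, limma adjusted p = 0.155). The subunits Orc4 and Orc5 were at 0.06 and −0.26 in the same comparison. Cdc6, which loads the helicase, was detected in 4, 5 and 5 of 6 brains of the congenic line, B6 and A/J.

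The brightest probe of Mcmbp, which binds MCM proteins, was at 0.02 in B6 against A/J, but a dimmer probe was at −0.41 (limma adjusted p = 0.00646). The 2 probes of this gene thus gave different answers. Of 9 members with more than 1 detected probe, this was the one whose second probe passed in any comparison.

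The 7 members among polymerases, clamp and clamp loader did not pass in any comparison. Pcna, the sliding clamp, had signals of 621.3, 635.7, 462.0, 424.6, 644.2 and 472.5 in C10 congenic brains, 453.3, 503.8, 406.6, 535.3, 572.1 and 736.4 in B6 brains, and 614.4, 566.4, 431.5, 361.1, 561.0 and 553.8 in A/J brains. The 3 ranges lay on top of each other. Its differences were 0.07 (95% interval −0.21 to 0.35), 0.02 (−0.26 to 0.30) and 0.05 (−0.23 to 0.33). Across the group, which also holds the clamp loader genes Rfc2, Rfc3 and Rfc5, Pold4 of polymerase delta, and Pole3 and Pole4 of polymerase epsilon, the values ran between −0.27 for Rfc3 in the congenic line against A/J and 0.27 for Rfc5 in B6 against A/J. Top2b, the topoisomerase II of neurons that no longer divide, had the widest interval, −0.55 to 0.42 in the congenic line against A/J.

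None of the 9 cyclins passed in the fit of all 18 brains. Ccnd1, the cyclin of G1 phase, averaged 1526.8 ± 339.6 in C10 congenic brains, 1361.0 ± 174.2 in B6 brains and 1612.1 ± 509.0 in A/J brains (SD, n = 6 each). A/J brain 6 was at 2524.2 and the other A/J brains between 1006.5 and 1757.6. All 3 detected probes of Ccnd1 failed to pass in each comparison. Ccnb1, the cyclin of mitosis, averaged 296.1 ± 108.2 in C10 congenic brains, 373.2 ± 45.9 in B6 brains and 313.8 ± 53.2 in A/J brains (SD, n = 6 each), with −0.32 for the congenic line against B6 (95% interval −0.62 to −0.01, limma adjusted p = 0.175). Without C10 congenic brain 1, at the values given with Cdc20, it passed, in 1 of the 18 fits that each left out 1 brain. The group's other members, Ccnd3, Ccng1, Ccnh, Ccnq, Ccnt2, Ccny and Ccnyl1, include partners of kinases that act in transcription rather than in the cycle, such as Ccnh and Ccnt2.

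**Figure D3:**
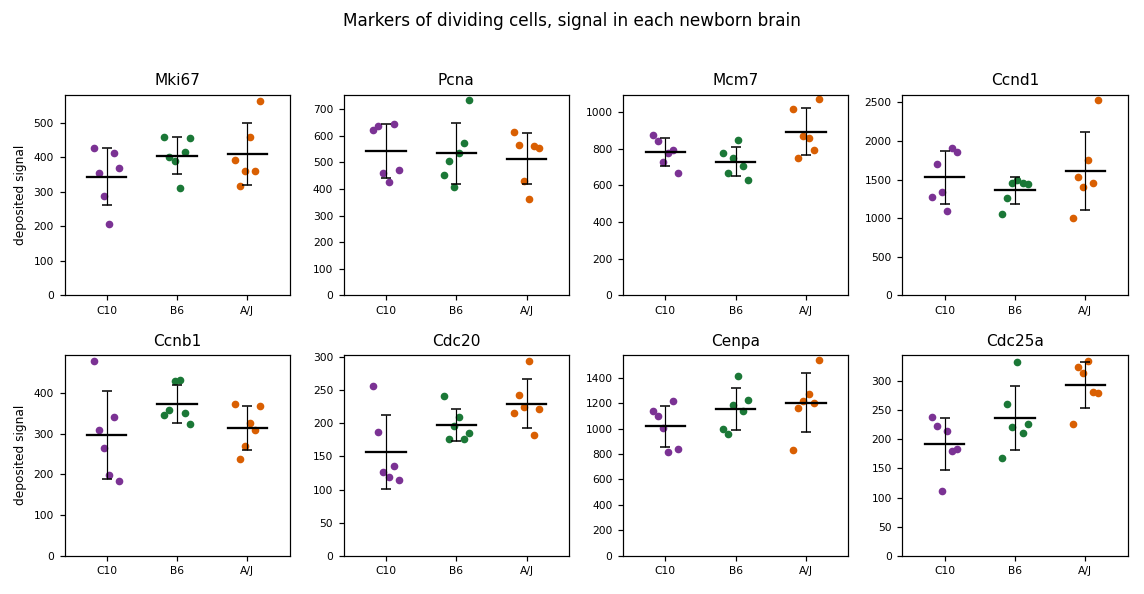
Deposited signal in each brain (points) of 8 genes of dividing cells, with C10 congenic, B6 and A/J brains left to right, the mean as a black line and the SD as a bar (n = 6 per line). None of the 8 passed in any comparison of all 18 brains, and the ranges of the lines overlap in every panel.

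Among the kinases and inhibitors, Cdkn1a passed. It encodes p21, which stops the cycle by binding cyclin-dependent kinases and is a target of p53. Its signals were 1061.2, 1419.4, 964.8, 1149.1, 1095.0 and 1079.9 in C10 congenic brains, 1232.4, 1197.0, 1286.2, 1382.0, 1201.9 and 1205.6 in B6 brains, and 970.3, 1107.1, 954.8, 964.3, 830.4 and 1231.2 in A/J brains. A/J brain 6 again lay within the B6 range and the other A/J brains below it. Cdkn1a was higher in B6 than in A/J (log2 difference 0.30, SE 0.101, limma adjusted p = 0.0433), but its second probe was at 0.19 and did not pass (limma adjusted p = 0.256). Cdk10, named after its values were seen, had a higher signal in every congenic brain than in any B6 brain and did not pass (0.29, limma adjusted p = 0.104), and its second probe was at −0.09. Cdk8, the kinase of the Mediator complex, Cdk20, and Cdk2ap1, which binds CDK2, passed in no comparison.

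Of the members, 8 match the symbols by prefix alone and are not known mainly for the cycle: the small GTPase gene Cdc42, its effector genes Cdc42ep2 and Cdc42ep3, the chaperone partner gene Cdc37l1, Cdc73 of the PAF1 transcription complex, Cdkal1, which modifies a transfer RNA, and Cdkl2 and Cdkl3, of a kinase family related by sequence. Cdkl2 was the one that passed. It averaged 1682.8 ± 370.9 in C10 congenic brains, 2177.1 ± 398.2 in B6 brains and 1469.6 ± 165.2 in A/J brains (SD, n = 6 each), and every B6 brain (1728.1 to 2627.1) was above every A/J brain (1206.4 to 1667.7). The B6 minus A/J difference was 0.54 (SE 0.134, limma adjusted p = 0.00642). Without these 8 genes, 0, 3 and 5 of 47 members passed in the 3 comparisons, Plk1 included. The 47 still hold Cdc5l, Cdk8, Ccnh and Ccnt2, whose functions outside the cycle are given above.

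The members were also summarised by brain. The median deviation of the 55 members from their own means over the 18 brains lay between −0.08 and 0.13 on the log2 scale. The lowest value was that of C10 congenic brain 3 and the highest that of A/J brain 6, in which 30 of 55 members were above their own mean. The same median over all probes lay between −0.01 and 0.04. For the congenic line, the mean of 22 members (40.0%) was nearer to A/J than to B6, beside 56.6% of all probes, and 33 were nearer to B6. This is a description and carries no test.

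**Figure D4:**
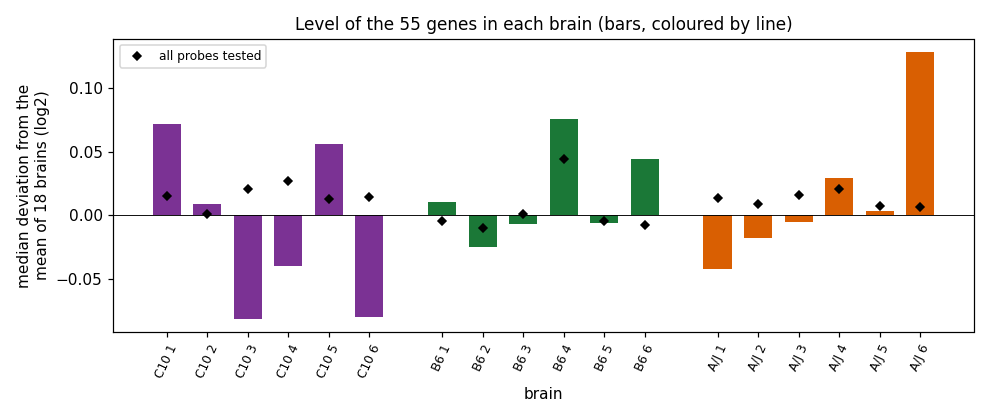
Median deviation of the 55 members from their own means over 18 brains (bars, log2 scale), for C10 congenic, B6 and A/J brains left to right, with the same median over all probes tested as diamonds. Bars of each line lie on both sides of 0, and A/J brain 6 at 0.13 is the tallest.

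The counts depended on single arrays. Without C10 congenic brain 3, B6 brain 4 and B6 brain 1, 1 of 53 members passed in the congenic line against A/J (Cdc25a, −0.38, limma adjusted p = 0.0338). In the same fit 0 of 53 passed in the congenic line against B6, with Plk1 no longer past the detection filter, Anapc13 at −0.25 (limma adjusted p = 0.243) and Rrm2 at −0.30 (limma adjusted p = 0.186). For B6 against A/J 5 passed, Anapc1, Cdc14b and Cdkl2 as before and Mcm7 and Rfc3 in addition, while Anapc13 was at 0.31 (limma adjusted p = 0.0729) and Cdkn1a at 0.27 (limma adjusted p = 0.0791). Over all probes, the fit without the 3 arrays called 397, 1405 and 2887 of 15548 in the 3 comparisons. Without A/J brain 6 the counts were 0, 3 and 6 of 54 members, where 287, 1916 and 2524 of 15828 probes passed. Leaving out each of the 18 brains in turn, Anapc1, Anapc13 and Cdkl2 passed in B6 against A/J in all 18 fits, Cdc14b in 13 and Cdkn1a in 8. In the congenic line against B6, Rrm2 passed in 12 of 18 fits and Anapc13 in 8. Plk1 was measured in the 12 fits that held all B6 brains, and without any 1 B6 brain the probe was no longer detected in 6 arrays.

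Other genes of the cycle outside the symbol rule, a list of 82 genes not picked for how they moved, were on the array for 33 and detected for 21. In the congenic line against A/J, 0 of the 21 passed limma's test, where 0.931% of all probes did. Rpa3, a subunit of the single-strand binding protein RPA, and Tfdp2, the dimer partner of E2F factors, passed in both other comparisons. They are 2 of the 21 genes in each, where 12.1% of all probes passed in the congenic line against B6 and 16.1% in B6 against A/J. Rpa3 averaged 1597.9 ± 163.2 in C10 congenic brains, 567.7 ± 128.3 in B6 brains and 1584.7 ± 247.5 in A/J brains (SD, n = 6 each). It was higher in the congenic line than in B6 by 1.40 and lower in B6 than in A/J (−1.38). Tfdp2 was at 0.33 and −0.47 in the same comparisons and was detected in 4 of 6 B6 brains. The median of the 21 genes was −0.12, −0.05 and −0.07 in the 3 comparisons.

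Markers of the cell types that whole brain holds are given list by list. Over all probes, 0.931%, 12.1% and 16.1% passed in the 3 comparisons. Of 3 detected neural progenitor genes (summed signal 1264.6 to 2284.2 in C10 congenic brains, 1188.0 to 1750.7 in B6 brains and 1540.6 to 1867.3 in A/J brains), 0 passed in any comparison. Of 4 genes of intermediate progenitors and newborn neurons, Sox11 was lower in the congenic line than in B6 (−0.56). Of 7 neuronal genes, Rbfox3 was higher in B6 than in A/J (0.37), and of 3 microglial genes Csf1r was higher in the congenic line than in B6 (0.56). Hba-a1 and Hbb-b2 of red blood cells were higher in the congenic line than in B6 and lower in B6 than in A/J, and Hbb-b1 passed in the opposite direction in both. The astrocyte and vessel lists had 1 detected gene each, which did not pass. The granule cell progenitor gene Atoh1 and the oligodendrocyte progenitor gene Olig2 were on the array and not detected in 6 brains, nor were Gfap, S100b, Snap25, Nefl and Pax6. The part of these cell types in the differences above was not tested.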

How the data were processed

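Whole brains of postnatal day 0.5 were profiled one per array, 6 for each of 3 mouse lines, and grouped by the sample titles. The authors' files give an intensity per probe from BeadStudio, per the submitters' processing notes, and it falls to −59 after background subtraction. They also give a bead SD, a bead number (deposited, and used for array quality) and a deposited detection score, for which a probe counts as detected above 0.99. Upper quartiles of the deposited signals lay between 188.7 and 189.6 on the 18 arrays. The sources used here name no software version or build. Arrays have no read depth, and the number of brains limits the precision.

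From the 46116 probes, 536 for controls, vectors and ribosomal RNA were left out. To each signal 75 was added (59, the size of the lowest value, and 16 more), and the sums were taken to log2 and quantile normalized. Probes detected in at least 6 arrays (15892) were fitted with limma 3.58.1 in R 4.3.3 (lmFit and eBayes, 1 coefficient per line, all 18 brains), and two-sided p were adjusted by Benjamini-Hochberg over all of them. A probe passed at an adjusted p under 0.05. The code was tested on simulated data.

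A probe ID number with 1 or 2 leading zeros was read as an NCBI Gene ID. The RefSeq table (GRCm38.p6) held 82.6% of 11897 numbers of this form, and 35.1% to 46.0% of the same numbers moved up by 1 to 50. Numbers without a leading zero matched no more often than shifted ones (10.6%, against 10.3% to 10.8%) and stayed unnamed, as did the others; reading every form would give 62 members. By these names the Actb, Gapdh and Dcx probes were bright, but those of Gfap and Snap25 were not detected.

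Named with values are the members that passed in any comparison, a list of standard proliferation genes, and the 3 brightest and 3 dimmest members. Others are marked where named, except Mcmbp, Orc4, Orc5, Rfc3, Rfc5 and Top2b, whose values are given outside this rule. The members and lists were chosen with earlier results of these data known, and the grouping by role was made after the values were seen. Alternatives were other normalizations, shifts, filters and probes, array weights, fits of the compared lines alone, a replicate block, each brain left out, and, added after seeing the data, the 3 least correlated arrays left out.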

Additional observations from a re-analysis of the deposited data

Results flagged for a closer look

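Single brains stood apart from the others of their line in 5 of 72 groups of 6 brains (24 genes in 3 lines), where chance alone gives about 1 in 20. The Anapc13 signal of A/J brain 6 was 1974.8, against 1208.9 to 1403.4 in the other A/J brains. The Cdk10 signal of the same brain was 1661.7, against 962.0 to 1189.5, and this is the brain with the Xist signal. The Anapc13 signal of C10 congenic brain 4 was 1240.3, against 1426.9 to 1517.7 in the other congenic brains. The Cdk10 signal of B6 brain 1 was 898.1, against 1029.1 to 1099.7 in the other B6 brains. The Rrm2 signal of A/J brain 3 was 84.6, against 148.4 to 182.7 in the other A/J brains.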

How the results depend on the processing

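No difference past the threshold in the main fit changed sign under any alternative run. In B6 against A/J, the second probe of Mcmbp passed at −0.41, with a sign opposite to that of its brightest probe, which did not pass. For the congenic line against A/J (0 members), 1 passed with array weights, with the compared lines alone and without the 3 least correlated arrays, and 0 to 2 with each brain left out in turn. Over all probes the calls were 971 with array weights, 276 with the compared lines alone and 397 without the 3 arrays, against 148 in the main fit. Deviations of same-numbered brains correlated at −0.09 to 0.33 over 18 pairs, 16 of them above 0 and 8 over 0.1, and 4 of 18 brains correlated best with their own number. With the replicate number as a block, 1 member passed in the congenic line against A/J (Orc3, limma adjusted p = 0.0443), 2 in the congenic line against B6, where Anapc13 no longer passed (limma adjusted p = 0.0600), and 7 in B6 against A/J. Over all probes the block moved the calls to 224, 2078 and 2728, against 148, 1922 and 2561 without it. For the congenic line against B6 (3 members), 1 passed with signals under 16 set to 16, with detection in all 18 arrays and with no filter, 0 without the 3 arrays, 0 of the 9 second probes, and 0 to 4 with each brain left out. Over all probes, 1760 of 15892 passed with signals under 16 set to 16, 1162 of 11844 with detection in all 18 arrays and 1600 of 45580 with no filter. For B6 against A/J (6 members), 13 of 55 passed with array weights, 1 of the 9 second probes, and 3 to 6 with each brain left out. Over all 15892 probes, array weights gave 4879 calls in this comparison, against 2561 in the main fit. The second probes are fewer genes, and the cause of the other changes was not tested. Without quantile normalization, with 75th percentile centring and with a larger shift the counts were 0, 3 and 6 to 7. The deposited signals already had near-equal upper quartiles (188.7 to 189.6), so dropping or swapping the normalization was a weak check. Over the named genes, 47 of 235 repeats of a difference past the threshold ended the call. Signal over background limits Plk1, which the congenic and A/J arrays did not detect, and the dim probes of Ccnd3, Cdca7l and Cdc6.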
